A study of Mus musculus with 3 samples.

Results

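Of the 32285 genes counted in splenic B cells, 8 were followed here: the Toll-like receptor genes Tlr1, Tlr3, Tlr4, Tlr7 and Tlr9, and the genes of 3 proteins that work with such receptors, Unc93b1, Cd180 and Ly86. They were taken by symbol, and each symbol was on 1 row of the count table. Single-cell RNA was counted in 3 libraries of spleen cells, 1 for each genotype. The 3′RR-BCL2 mice carried a randomly integrated transgene with a human BCL2 cassette under the core IgH 3′RR superenhancer, the Igκ-BCL2 mice carried the same cassette knocked in upstream of the Eκ enhancer in place of the deleted Jκ region, and the WT mice carried neither. All mice were of a mixed B6 and 129 background and had received 1 injection of sheep red blood cells (SRBCs) 10 days earlier. The labels describe the WT library as sorted B cells and both BCL2 libraries as whole tissue cells, whereas the methods describe magnetic negative selection of B cells for all 3. Human BCL2 was not among the counted genes, so the transgene itself was not measured here, and the age and zygosity of these mice are not given in the sources used here.

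Toll-like receptors are innate sensors of microbial products. TLR1 (with TLR2) and TLR4 sense lipopeptides and lipopolysaccharide at the cell surface, whereas TLR3, TLR7 and TLR9 sense double-stranded RNA, single-stranded RNA and CpG DNA in endosomes, to which UNC93B1 carries them from the endoplasmic reticulum. CD180, also called RP105, is a TLR4-like surface protein of B cells without a signaling domain of its own, and LY86, also called MD-1, is the secreted partner that CD180 needs to reach the surface. In B cells these receptors act beside the antigen receptor, and TLR7 and TLR9 are known for their part in responses to self nucleic acids.

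In GRCm38, the genes lie at chr5:64924679-64933563 on the minus strand for Tlr1, chr8:45395665-45411080 on the minus strand for Tlr3, chr4:66827584-66930284 on the plus strand for Tlr4 and chrX:167304929-167330558 on the minus strand for Tlr7. Tlr9 lies at chr9:106222598-106226883, Unc93b1 at chr19:3935186-3949340, Cd180 at chr13:102693558-102739629 and Ly86 at chr13:37345208-37419036, all on the plus strand. Exons of Tlr3 overlap the antisense gene Gm45542, and exons of Cd180 overlap Mast4 on the opposite strand. Use of strand in the counting is not given in the sources used here, and without it reads of such partners cannot be told apart. Gm45542 had 12, 9 and 8 UMIs in all B-lineage cells of the 3′RR-BCL2, Igκ-BCL2 and WT libraries. Mast4 had levels of 80.3, 111 and 69.1 counts per 1000000 UMIs (CPM) in germinal center-like cells of the 3′RR-BCL2, Igκ-BCL2 and WT libraries, against 132, 116 and 150 CPM in follicular-like cells, and its part in the Cd180 counts was not tested.

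RefSeq promoter windows, 250 bases before to 50 bases after a transcription start in GRCm38, were found for 5 of the 8 genes, and Tlr4, Tlr7 and Unc93b1 had none. Letter patterns known from B cell and interferon-response promoters were searched on both strands: the IRF core AANNGAAA, the longer interferon-stimulated response element (a repeat of GAAA spaced by 2 bases), the octamer ATGCAAAT and the PU.1 core GAGGAAG. Of 32851 promoter windows, 23.9% held the IRF core, 3.44% the longer element, 1.74% the octamer and 13.6% the PU.1 core. Windows are shown for Tlr3 and Ly86, which were higher in interferon-activated-like cells, for Cd180, which was not, and for Tlr9, with matches on either strand in capitals. They lie at chr8:45410331-45410630 (minus strand, Tlr3), chr13:37345095-37345394 (plus strand, Ly86), chr13:102693297-102693596 (plus strand, the first of the pair of Cd180 windows) and chr9:106222348-106222647 (plus strand, Tlr9).
Tlr3: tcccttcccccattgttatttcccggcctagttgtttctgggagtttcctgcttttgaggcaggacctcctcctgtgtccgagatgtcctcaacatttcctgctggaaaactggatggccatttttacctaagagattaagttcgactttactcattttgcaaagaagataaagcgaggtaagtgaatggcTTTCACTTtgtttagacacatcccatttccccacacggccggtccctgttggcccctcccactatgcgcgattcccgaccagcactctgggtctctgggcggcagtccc
Ly86: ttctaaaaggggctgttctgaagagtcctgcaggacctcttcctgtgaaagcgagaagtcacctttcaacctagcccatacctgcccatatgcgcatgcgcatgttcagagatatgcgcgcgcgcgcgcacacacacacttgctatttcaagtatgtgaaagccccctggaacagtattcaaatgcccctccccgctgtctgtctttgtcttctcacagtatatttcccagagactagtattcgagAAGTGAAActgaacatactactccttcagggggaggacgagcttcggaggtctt
Cd180: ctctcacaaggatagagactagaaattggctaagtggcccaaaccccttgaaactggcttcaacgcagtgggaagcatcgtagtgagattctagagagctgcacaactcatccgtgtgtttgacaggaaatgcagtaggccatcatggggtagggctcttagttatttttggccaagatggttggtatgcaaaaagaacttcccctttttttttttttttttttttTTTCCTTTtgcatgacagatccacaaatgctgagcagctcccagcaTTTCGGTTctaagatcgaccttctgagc
Tlr9: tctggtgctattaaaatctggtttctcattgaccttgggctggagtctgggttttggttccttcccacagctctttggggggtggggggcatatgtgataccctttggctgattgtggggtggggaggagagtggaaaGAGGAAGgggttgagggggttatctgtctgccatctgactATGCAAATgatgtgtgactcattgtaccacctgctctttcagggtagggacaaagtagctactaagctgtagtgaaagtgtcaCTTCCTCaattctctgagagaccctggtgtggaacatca

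Counted from the transcription start, the capitals mark an IRF core at -59 in Tlr3, at -4 in Ly86 and at -24 and 23 in Cd180. In Tlr9 they mark PU.1 cores at -112 and 12 and the octamer at -72. Tlr1 had a PU.1 core at -23 in 1 window and an IRF core at -54 in the other, and no window of these 5 genes held the longer interferon element. A match describes the letters only.

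The libraries held 7579, 7034 and 11269 cell barcodes (3′RR-BCL2, Igκ-BCL2 and WT) and 45539172, 37433924 and 62777659 UMIs, and 6561, 6243 and 9932 B-lineage cells were left by the filter that the study states and the removal of Cd3 or C1q barcodes. Between 15 and 24 barcodes were shared by any pair of libraries. Cells were put into B cell stages by marker genes that include none of the 8. Genes held out from these lists followed them in the germinal center (GC)-like and interferon-activated-like classes, and those of other classes are not reported here. The sum of the held-out GC genes was 808, 784 and 810 CPM in non-dividing GC-like cells of the 3′RR-BCL2, Igκ-BCL2 and WT libraries, against 148, 139 and 107 in follicular-like cells. The interferon-activated-like cells had 2526, 2428 and 2293 CPM of held-out interferon genes, against 722, 606 and 589 in follicular-like cells. Classes called plasma-marker hold 26, 18 and 12 cells. Of those within the upper limits, unsupervised clusters placed 16 with follicular-like, 9 with non-dividing GC-like and 8 with B-1- or memory-like cells, and no plasma-marker cluster formed. Of the marginal zone-like cells, clusters placed 394 with marginal zone-like and 46 with follicular-like ones. The 3′RR-BCL2 library had 69311 UMIs of Xist and 1 of the Y-linked Ddx3y, against 6 and 6610 in the Igκ-BCL2 library and 9 and 11648 in the WT library. With 1 library per genotype, genotype, mouse, sex and run cannot be told apart and no test was made. Intervals are exact at 95% and cover counting error only.

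A level in CPM is the number of UMIs of a gene in a class of cells for each 1000000 UMIs of all genes in those cells. A UMI stands for 1 captured molecule, so no length scaling was needed, although capture can differ between genes. The 8 genes covered a wide range of abundance in follicular-like cells. Ly86 had 436, 355 and 422 CPM (3′RR-BCL2, Igκ-BCL2 and WT), Unc93b1 had 409, 425 and 420, and Cd180 had 176, 151 and 192. Ly86 and Unc93b1 were thus alike in WT, where their intervals overlapped, and apart in both BCL2 libraries. Tlr1 had 40.2, 36.3 and 46.8 CPM and Tlr7 had 17.7, 15.1 and 18.1. Tlr4 had 3.48, 5.63 and 5.17, Tlr9 had 2.67, 2.88 and 3.48, and Tlr3 had 2.37, 1.61 and 2.18. Each cofactor was thus above every receptor, and in each library the order Tlr1, then Tlr7, then the other 3 receptors held with intervals that did not overlap. Tlr4 was above Tlr9 and Tlr9 above Tlr3 without overlap in the Igκ-BCL2 and WT libraries, whereas in the 3′RR-BCL2 library these neighbours overlapped.

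Over all B-lineage cells the scarcest receptor, Tlr3, rested on 120, 73 and 171 UMIs, and Tlr7 on 737, 538 and 1177. The other receptors of the family were near or below these levels. Tlr2 had 2.0, 3.36 and 2.58 CPM in all B-lineage cells and Tlr6, the close paralog of Tlr1, had 2.20, 2.03 and 2.58. Tlr12 had 0.817, 0.667 and 0.901 CPM, and Tlr5, Tlr8, Tlr11 and Tlr13 had 0 to 9 UMIs a library.

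**Figure D1:**
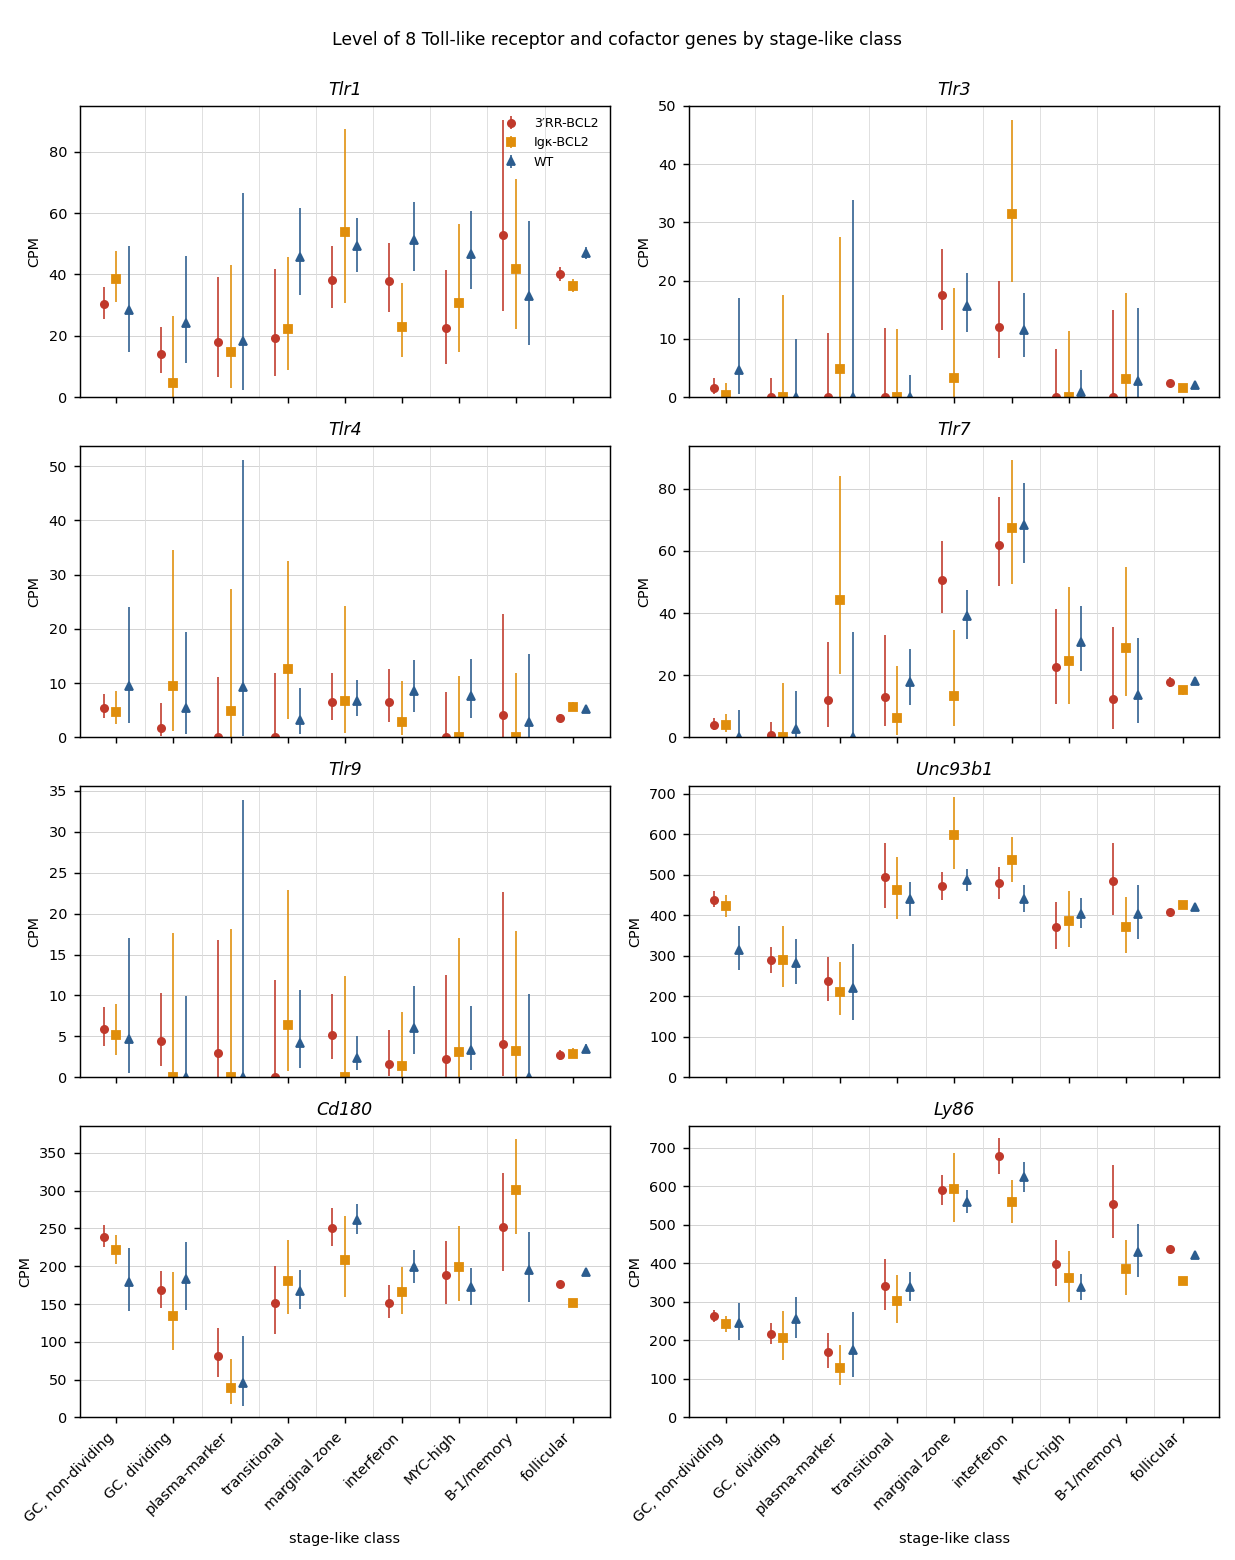
Level of each of the 8 genes (CPM, linear axes that start at 0) in 9 stage-like classes, with points for the 3′RR-BCL2, Igκ-BCL2 and WT libraries and exact 95% Poisson intervals. Tlr7 was low in both GC-like classes and stood at 61.8, 67.2 and 68.2 CPM in interferon-activated-like cells.

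Shares of cells gave a like order. With every cell thinned to 2000 UMIs and the libraries pooled, 55.1% of 19047 follicular-like cells had a UMI of Unc93b1, 53.3% of Ly86, 27.5% of Cd180, 7.94% of Tlr1, 3.21% of Tlr7, 0.977% of Tlr4, 0.551% of Tlr9 and 0.331% of Tlr3. In the 48 barcodes with T cell genes, the shares were 31.2% for Unc93b1, 25% for Ly86, 18.8% for Cd180, 6.25% for Tlr1 and 2.08% for Tlr7, and Tlr3, Tlr4 and Tlr9 had 0 of 48, which allows a share of up to 6.25%. These barcodes had 1882 CPM of Cd79a, a B cell gene, so they are not free of B cell RNA and make an imperfect background, and their median depth before thinning was 6377.5 UMIs, against 4973 in the follicular-like cells. The follicular-like shares of Tlr1, Tlr3, Tlr4, Tlr7 and Tlr9 were within the interval of this background.

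The comparison of stages asks where in B cell differentiation each gene is transcribed. A gene was called higher or lower in a stage where its level was past 2-fold of the follicular-like level, the same way, in all 3 libraries. All 8 genes had the 20 UMIs needed for this in every stage through their follicular-like counts, so a lower call can rest on few UMIs in the stage itself: 1 for Tlr7 in WT GC-like cells and 6, 3 and 2 for Tlr1 in plasma-marker cells. As a description, 7 of the 56 pairs of gene and stage met the rule. Of all measured genes, 0.0435% to 4.63% met it in a given stage and direction, and these shares are given with each stage below. Tlr7 was lower in GC-like cells, Tlr3 and Tlr7 were higher in interferon-activated-like cells, Tlr3 was higher in marginal zone-like cells, and Tlr1, Cd180 and Ly86 were lower in plasma-marker cells. The follicular-like baseline is mixed. Unsupervised clusters placed 11039 of its cells with follicular-like, 1779 with marginal zone-like, 1376 with Myc-high and 1278 with transitional-like ones. They placed 884 with interferon-activated-like and 823 with non-dividing GC-like ones. The part of this mixing in the ratios was not tested.

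**Figure D2:**
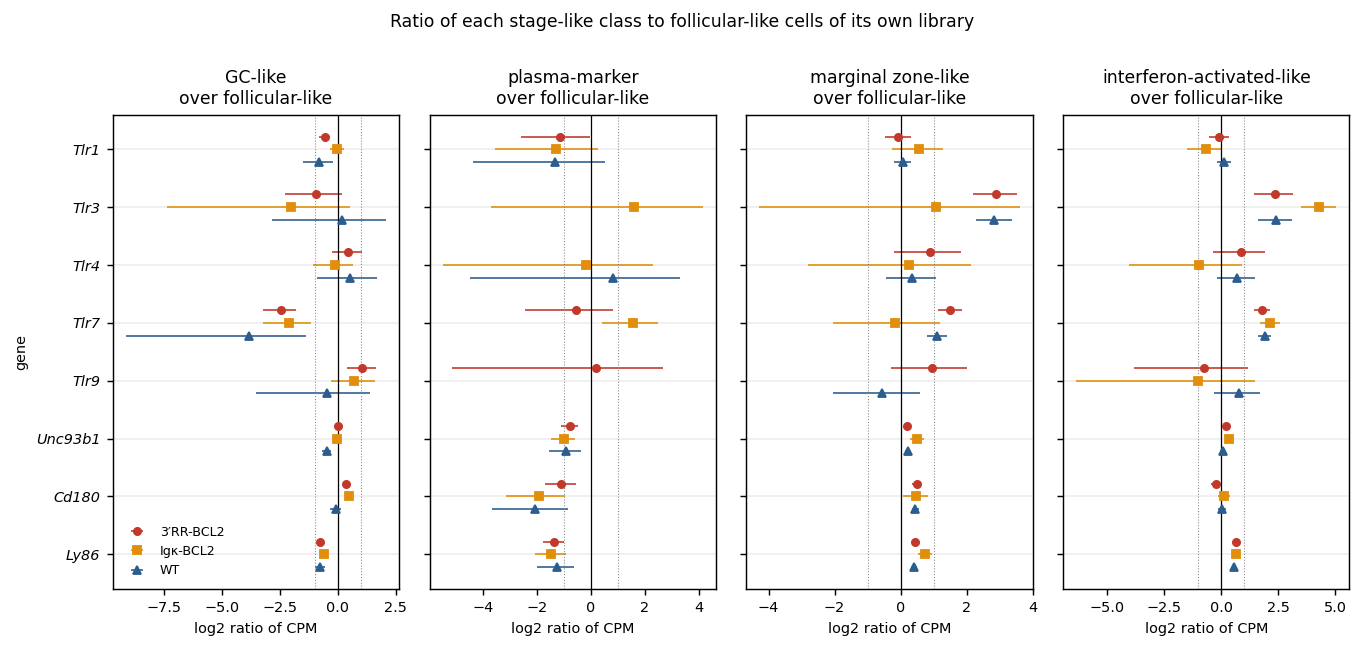
Log2 ratio of the level in 4 stage-like classes to that in follicular-like cells of the same library, with exact 95% intervals, a solid line at no difference and dotted lines at 2-fold. Genes without a UMI in the class have no point, and the intervals of Tlr3, Tlr4 and Tlr9 are wide.

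Tlr7, the receptor for single-stranded RNA, was close to undetected in GC-like cells. It had 18 UMIs in 718 GC-like cells of the 3′RR-BCL2 library, 9 in 328 cells of the Igκ-BCL2 library and 1 in 88 cells of the WT library, or 3.23, 3.55 and 1.26 CPM. These levels were 0.182 (interval 0.107 to 0.29), 0.234 (0.106 to 0.449) and 0.0695 (0.00176 to 0.388) of those in follicular-like cells, and the intervals of both classes were apart in each library. Of the 8 genes, 0 were higher and 1 was lower in GC-like cells, where 4.63% of 11523 measured genes were higher and 3.71% were lower. The low level was shared by non-dividing GC-like cells, with 3.83, 3.86 and 0 CPM (3′RR-BCL2, Igκ-BCL2 and WT), and dividing ones, with 1 UMI in the 3′RR-BCL2, 0 in the Igκ-BCL2 and 1 in the WT library. After thinning, 0.543% of 920 non-dividing GC-like cells had a UMI of Tlr7, which is below the share in T cell barcodes and is not read as expression. That share was 1 of 48 barcodes, and its interval held the GC-like and the follicular-like share alike. With stages taken from clusters, GC-like cells had Tlr7 ratios of -2.21, -1.33 and -0.85 on the log2 scale in the 3′RR-BCL2, Igκ-BCL2 and WT libraries, so the WT library fell short of 2-fold there, and thinning left 0 UMIs in WT, so the call was lost in both cases.

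Ly86, the partner of CD180, was also lower in GC-like cells, within 2-fold. Its level was 253 CPM in the 3′RR-BCL2 library, 238 in the Igκ-BCL2 library and 250 in the WT library, against 436, 355 and 422 in follicular-like cells. The ratios were 0.58 (interval 0.549 to 0.613), 0.671 (0.617 to 0.728) and 0.592 (0.512 to 0.681). GC-like cells of the 3 libraries thus had like levels of Ly86, with overlapping intervals.

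Cd180 did not follow its partner. It had 225, 214 and 181 CPM in GC-like cells of the 3′RR-BCL2, Igκ-BCL2 and WT libraries, against 176, 151 and 192 in follicular-like cells. The ratio was above 1 in both BCL2 libraries, 1.28 for 3′RR-BCL2 (1.2 to 1.36) and 1.42 for Igκ-BCL2 (1.3 to 1.55), and its interval held 1 in WT, where it was 0.942 (0.793 to 1.11). Dividing GC-like cells had less Cd180 in the BCL2 libraries, with 168 CPM against 239 in non-dividing cells of the 3′RR-BCL2 library and 134 against 221 in the Igκ-BCL2 library, and in WT they had 183 against 179. In non-dividing GC-like cells Cd180 and Ly86 thus went opposite ways in the BCL2 libraries, with Cd180 above and Ly86 below the follicular-like level.

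Unc93b1, which delivers TLR3, TLR7 and TLR9 to endosomes, had 409 and 412 CPM in GC-like cells of the 3′RR-BCL2 and Igκ-BCL2 libraries, against 409 and 425 in follicular-like cells. In WT it had 300 CPM in GC-like cells against 420 in follicular-like cells, a ratio of 0.714 (0.626 to 0.811). The makeup of the GC-like classes differed: dividing cells were 113 of 718 in the 3′RR-BCL2, 20 of 328 in the Igκ-BCL2 and 42 of 88 in the WT library. Dividing GC-like cells had 289, 291 and 283 CPM of Unc93b1 (3′RR-BCL2, Igκ-BCL2 and WT), against 439, 423 and 316 in non-dividing ones. Dividing cells of the 3 libraries thus had nearly the same level, on 329, 61 and 105 UMIs. In non-dividing cells both BCL2 levels were above that of WT with intervals apart.

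Tlr9, the CpG DNA receptor, did not share the pattern of Tlr7 in the BCL2 libraries. It had 5.56 CPM (31 UMIs) in GC-like cells of the 3′RR-BCL2 library, 4.73 (12 UMIs) in the Igκ-BCL2 library and 2.51 (2 UMIs) in the WT library, against 2.67, 2.88 and 3.48 in follicular-like cells. The ratio was 2.08 (1.33 to 3.18) in 3′RR-BCL2, and the intervals held 1 in Igκ-BCL2 at 1.64 (0.815 to 3.02) and in WT at 0.723 (0.0869 to 2.65). Tlr9 and Tlr7 had overlapping intervals in GC-like cells of each library, with counts of 31 and 18, 12 and 9, and 2 and 1, whereas in follicular-like cells Tlr7 was above Tlr9 without overlap, with counts of 531 to 80, 441 to 84 and 895 to 172.

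Tlr1 was lower in GC-like cells of the 3′RR-BCL2 and WT libraries, at 27.1 and 26.4 CPM against 40.2 and 46.8 in follicular-like cells, and level in the Igκ-BCL2 library, at 35.8 against 36.3. In dividing GC-like cells Tlr1 had 16, 1 and 9 UMIs in the 3′RR-BCL2, Igκ-BCL2 and WT libraries, or 14.1, 4.77 and 24.2 CPM, and the 3 ratios to follicular-like cells all had intervals below 1. Tlr4, the lipopolysaccharide receptor, had 4.66, 5.12 and 7.54 CPM in GC-like cells and Tlr3 had 1.25, 0.394 and 2.51, and each of their ratios to follicular-like cells had an interval that held 1.

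Interferon-activated-like cells, marked by genes such as Ifit1 and Isg15, had the highest Tlr7 of the compared stages in each library. They had 61.8 CPM in the 3′RR-BCL2, 67.2 in the Igκ-BCL2 and 68.2 in the WT library, against 17.7, 15.1 and 18.1 in follicular-like cells. The ratios were 3.48 (2.71 to 4.43), 4.44 (3.22 to 6.01) and 3.77 (3.07 to 4.59), so that the 3 libraries did not differ beyond their intervals. After thinning, 9.89% of 566 such cells had a Tlr7 UMI. This was above the share in T cell barcodes but within the wide interval of that background.

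Tlr3, the receptor for double-stranded RNA, had 12 CPM (15 UMIs) in interferon-activated-like cells of the 3′RR-BCL2 library, 31.5 (22 UMIs) in the Igκ-BCL2 library and 11.5 (19 UMIs) in the WT library, against 2.37, 1.61 and 2.18 in follicular-like cells. The ratios were 5.08 (2.7 to 8.95), 19.5 (11.2 to 33) and 5.26 (3.05 to 8.61). Tlr3 and Tlr7 made up 2 of 8 genes that were higher in these cells, where 1.09% of 11498 measured genes were higher, and 0 of 8 were lower, where 0.0435% were. Both remained past 2-fold in all 3 libraries under each of the 8 other settings tried.

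Ly86 was higher in interferon-activated-like cells as well, below 2-fold, at 677, 558 and 623 CPM in the 3′RR-BCL2, Igκ-BCL2 and WT libraries, against 436, 355 and 422 in follicular-like cells. The ratios were 1.55 (1.45 to 1.66), 1.57 (1.42 to 1.74) and 1.47 (1.38 to 1.57). Unc93b1 had ratios of 1.17 (1.08 to 1.27), 1.26 (1.14 to 1.4) and 1.05 (0.973 to 1.13). Cd180 had 152, 166 and 199 CPM, against 176, 151 and 192 in follicular-like cells, and its ratios of 0.863 (0.742 to 0.998), 1.1 (0.908 to 1.32) and 1.03 (0.924 to 1.15) had no common direction, so that here too it did not follow Ly86. Tlr4 had 2 to 14 UMIs a library in this class, Tlr9 had 1 to 10 and Tlr1 had 16 to 85, and the intervals of their ratios held 1.

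Markers of other cells were summed in these classes. Myeloid genes had 26.5 and 70.1 CPM in interferon-activated-like cells of the 3′RR-BCL2 and Igκ-BCL2 libraries but 983 in the WT library, against 49.6, 22.4 and 49.4 in follicular-like cells, and 2 WT barcodes held 1567 of the 1628 myeloid UMIs. Without barcodes that held 5 or more such UMIs, the log2 ratios of Tlr7 were 1.81, 2.17 and 1.95 in the 3′RR-BCL2, Igκ-BCL2 and WT libraries and those of Tlr3 were 2.34, 4.31 and 2.42, and all 7 stage calls were kept. Plasmacytoid dendritic cells, which hold much Tlr7 and Tlr9, were checked by 4 genes, whose sum was 709, 737 and 659 CPM in interferon-activated-like cells of the 3′RR-BCL2, Igκ-BCL2 and WT libraries, against 328, 322 and 348 in follicular-like cells. Of these genes the defining Siglech had 0 UMIs in this class in each library and Ccr9 had 3, 5 and 3. Tcf4 had 424, 429 and 420 CPM, against 276, 278 and 299 in follicular-like cells, and Bst2 had 283, 300.4 and 237, against 50.1, 41.1 and 45.9. Tcf4 and Bst2 thus made up nearly all of the sum, and Bst2 is also among the held-out interferon genes. The part of plasmacytoid dendritic cells in the Tlr7 level was not tested further.

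Tlr7 was also set against interferon markers in follicular-like cells, which fall short of the limit for the interferon-activated-like class. They were divided by how many of the 10 interferon markers they held. These markers define the class, and clusters placed 884 follicular-like cells with interferon-activated-like ones, so the bins include near misses of it. With 0, 1, 2, and 3 or more markers, Tlr7 had 14.1, 21.9, 28.6 and 33.2 CPM in the 3′RR-BCL2 library, 13.1, 16.2, 35.7 and 32.6 in the Igκ-BCL2 library, and 15.8, 20.4, 31.1 and 43.4 in the WT library. Ly86 had 428, 440, 479 and 490 in the 3′RR-BCL2 library, 348, 358, 416 and 451 in the Igκ-BCL2 library, and 417, 426, 469 and 447 in the WT library. Both genes were thus higher with 2 markers than with 0, with intervals apart in each library. Tlr3 had 41, 29 and 70 UMIs in cells with 0 markers and 0, 0 and 4 UMIs in those with 3 or more, too few for an order. Cd180 had 171, 128 and 187 CPM with 2 markers against 179, 149 and 196 with 0 (3′RR-BCL2, Igκ-BCL2 and WT). It was thus lower in each library, with overlapping intervals, and had no common direction over all 4 bins. Cells with more markers were also deeper, with means of 5437, 5139 and 5299 UMIs a cell at 0 markers and 7109, 6325 and 7077 at 2 in the 3′RR-BCL2, Igκ-BCL2 and WT libraries, and the part of depth in these levels was not tested.

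**Figure D3:**
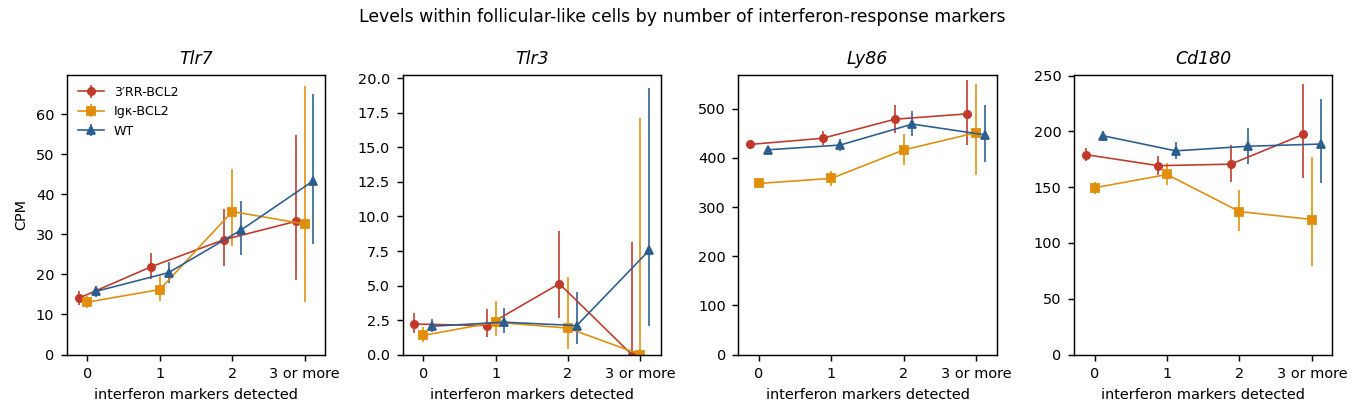
Levels of Tlr7, Tlr3, Ly86 and Cd180 (CPM) within follicular-like cells by the number of interferon markers detected in a cell, for the 3′RR-BCL2, Igκ-BCL2 and WT libraries, with exact 95% Poisson intervals. Tlr7 stood higher with 2 markers than with 0 in each library, and the bin of 3 or more markers holds 36, 19 and 48 cells.

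Marginal zone-like cells were the other class with high Tlr3, in 2 of the libraries. Tlr3 had 17.5 CPM (27 UMIs in 169 cells) in the 3′RR-BCL2 library, 3.36 (1 UMI in 34 cells) in the Igκ-BCL2 library and 15.6 (40 UMIs in 293 cells) in the WT library, against 2.37, 1.61 and 2.18 in follicular-like cells. The ratios were 7.37 (4.55 to 11.6), 2.08 (0.0516 to 12.2) and 7.15 (4.84 to 10.4), so the Igκ-BCL2 library met 2-fold with 1 UMI and an interval that held 1. Tlr3 was the 1 gene of 8 that was higher, where 1.13% of 11499 measured genes were, and 0 were lower, where 0.678% were. The call was lost with a stricter stage limit, with stages from clusters and with thinned cells, each time through the Igκ-BCL2 library, whose log2 ratio was -0.064 under clusters. In marginal zone-like cells without any interferon marker Tlr3 had 17.7, 0 and 15.2 CPM (12, 0 and 22 UMIs), so in the 3′RR-BCL2 and WT libraries the level was as high without these markers.

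Tlr7 had 50.5 CPM (78 UMIs) in marginal zone-like cells of the 3′RR-BCL2 library, 13.4 (4 UMIs) in the Igκ-BCL2 library and 39.0 (100 UMIs) in the WT library, against 17.7, 15.1 and 18.1 in follicular-like cells. The ratios were 2.85 (2.22 to 3.62), 0.888 (0.241 to 2.29) and 2.16 (1.74 to 2.65), so the same 2 libraries were high. Without interferon markers Tlr7 had 44.2, 5.69 and 28.3 CPM in marginal zone-like cells of the 3′RR-BCL2, Igκ-BCL2 and WT libraries. With 0, 1, 2, and 3 or more markers it had 28.3, 38.1, 60.8 and 120 CPM in WT, and the intervals of the first and last bin were apart. In the 3′RR-BCL2 library these levels were 44.2, 60.8, 37.2 and 68.6 CPM, with overlapping intervals. The last bin held 16 UMIs in WT and 15 in the 3′RR-BCL2 library.

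The abundant cofactors were higher in marginal zone-like cells of each library, within 2-fold. Ly86 had 589, 591 and 560 CPM (3′RR-BCL2, Igκ-BCL2 and WT), at ratios of 1.35 (1.26 to 1.44), 1.67 (1.43 to 1.93) and 1.33 (1.26 to 1.4). Cd180 had 251, 208 and 262, at ratios of 1.43 (1.28 to 1.58), 1.38 (1.06 to 1.78) and 1.36 (1.26 to 1.47), and Unc93b1 had 472, 598 and 488, at ratios of 1.15 (1.07 to 1.24), 1.41 (1.21 to 1.63) and 1.16 (1.09 to 1.23). Of these classes, marginal zone-like cells were the one in which Ly86, Cd180 and Unc93b1 all stood above follicular-like cells with intervals off 1 in all 3 libraries. Mast4, which overlaps Cd180, had 214, 138 and 214 CPM there, against 132, 116 and 150 in follicular-like cells, and its part in the Cd180 counts was not tested. Tlr1 had ratios whose intervals held 1, and Tlr4 and Tlr9 had 0 to 17 UMIs a library. Myeloid genes had 81.0, 97.4 and 94.4 CPM in these cells, and Siglech had 1, 0 and 11 UMIs. The part of other cells in these levels was not tested beyond the 7 calls kept without myeloid barcodes.

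Plasma-marker cells had the lowest cofactor levels. Ly86 had 169, 128 and 175 CPM (56, 26 and 19 UMIs) in the 3′RR-BCL2, Igκ-BCL2 and WT libraries, against 436, 355 and 422 in follicular-like cells, at ratios of 0.386, 0.361 and 0.414. Cd180 had 81.2, 39.4 and 46.0 (27, 8 and 5 UMIs), at ratios of 0.462, 0.262 and 0.239, and Tlr1 had 18.1, 14.8 and 18.4 (6, 3 and 2 UMIs), at ratios of 0.449, 0.407 and 0.393. Unc93b1 had 238, 212 and 221, at ratios of 0.581, 0.498 and 0.525. The intervals of Ly86, Cd180 and Unc93b1 lay below 1 in each library and that of Tlr1 in the 3′RR-BCL2 library alone, and 3 of 8 genes were called lower, where 2.91% of 11497 measured genes were, and 0 higher, where 1.4% were.

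These 3 calls depend on how levels are scaled and on few cells, most of them at the minimum of 4 markers. Plasma cells hold much immunoglobulin RNA, and with immunoglobulin, ribosomal protein and mitochondrial genes left out of the totals the log2 ratios of Cd180 were -0.89, -1.65 and -1.78 and those of Ly86 were -1.15, -1.19 and -0.99 in the 3′RR-BCL2, Igκ-BCL2 and WT libraries, so 0 of the 3 calls remained, though each direction did. Without the 10 cells above the upper limits of the filter, 0 of the 3 remained either, nor did any with thinned cells, and the call of Tlr1 was also lost with a stricter stage limit and without cells past several limits. Tlr7 had 12 CPM (4 UMIs) in these cells of the 3′RR-BCL2 library, 44.3 (9 UMIs) in the Igκ-BCL2 library and 0 UMIs in WT, where 3 UMIs would be 27.6 CPM, and the intervals of the 3 levels overlapped.

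The other stages had no call among the 8. In transitional-like cells 0 of 8 were higher and 0 lower, where 0.974% and 0.226% of 11497 measured genes were. In Myc-high cells 0 of 8 were higher and 0 lower, against 4.15% and 2.58%, and in B-1- or memory-like cells 0 and 0, against 1.15% and 0.157%. Tlr3 was at 0 UMIs in transitional-like cells of all 3 libraries, where 3 UMIs would be 9.63, 9.51 and 3.12 CPM, so a level like that of follicular-like cells would not have been detectable. Ly86 was at 340, 301 and 338 CPM in transitional-like cells. Cd180 had 252, 301 and 195 CPM in B-1- or memory-like cells, and the Igκ-BCL2 value was 2-fold its follicular-like level (interval 1.61 to 2.45) while the WT value was not above it, at a ratio of 1.01 (0.791 to 1.28). In Myc-high cells Tlr7 had 22.5, 24.5 and 30.5 CPM, at ratios of 1.27, 1.62 and 1.69, with an interval off 1 in WT.

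The libraries were then compared with each other, which asks whether the BCL2 cassettes go with other levels of these genes. A gene was called past 1.5-fold in a class where either library had at least 20 UMIs. Over all B-lineage cells 0 of 8 genes were past it in the 3′RR-BCL2 library over WT, where 12.9% of 13050 measured genes were, and 0 of 8 in the Igκ-BCL2 library, where 14.9% were. In follicular-like cells it was 0 of 8 in both, where 9.13% and 13.4% of genes were. In follicular-like cells the interval of the smaller differences was off 0 for 5 genes in the 3′RR-BCL2 library and for 4 in the Igκ-BCL2 library.

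In follicular-like cells of the Igκ-BCL2 library Cd180 had 151 CPM, against 192 in WT, a log2 ratio of -0.35 (-0.40 to -0.30). Ly86 had 355 against 422, at -0.25 (-0.29 to -0.22), Tlr1 had 36.3 against 46.8, at -0.37 (-0.47 to -0.26), and Tlr7 had 15.1 against 18.1, at -0.26 (-0.42 to -0.09). These 4 genes were thus lower with intervals off 0, beside a median of 0.02 over 12645 genes. Unc93b1 had 425 against 420, at 0.02 (-0.02 to 0.05).

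In the 3′RR-BCL2 library the same cells had 176 CPM of Cd180, against 192 in WT, a log2 ratio of -0.13 (-0.18 to -0.08), and 40.2 of Tlr1 against 46.8, at -0.22 (-0.32 to -0.12). Tlr4 had 3.48 against 5.17 CPM, at -0.57 (-0.92 to -0.24), which is just inside 1.5-fold and passed it under 3 of the other settings. Ly86 had 436 against 422, at 0.05 (0.01 to 0.08), and Unc93b1 had 409 against 420, at -0.04 (-0.07 to -0.01), beside a median of -0.07 over 12587 genes. Tlr7, which is X-linked, had 17.7 against 18.1 CPM, at -0.03 (-0.19 to 0.13), although this library alone had Xist UMIs in number.

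**Figure D4:**
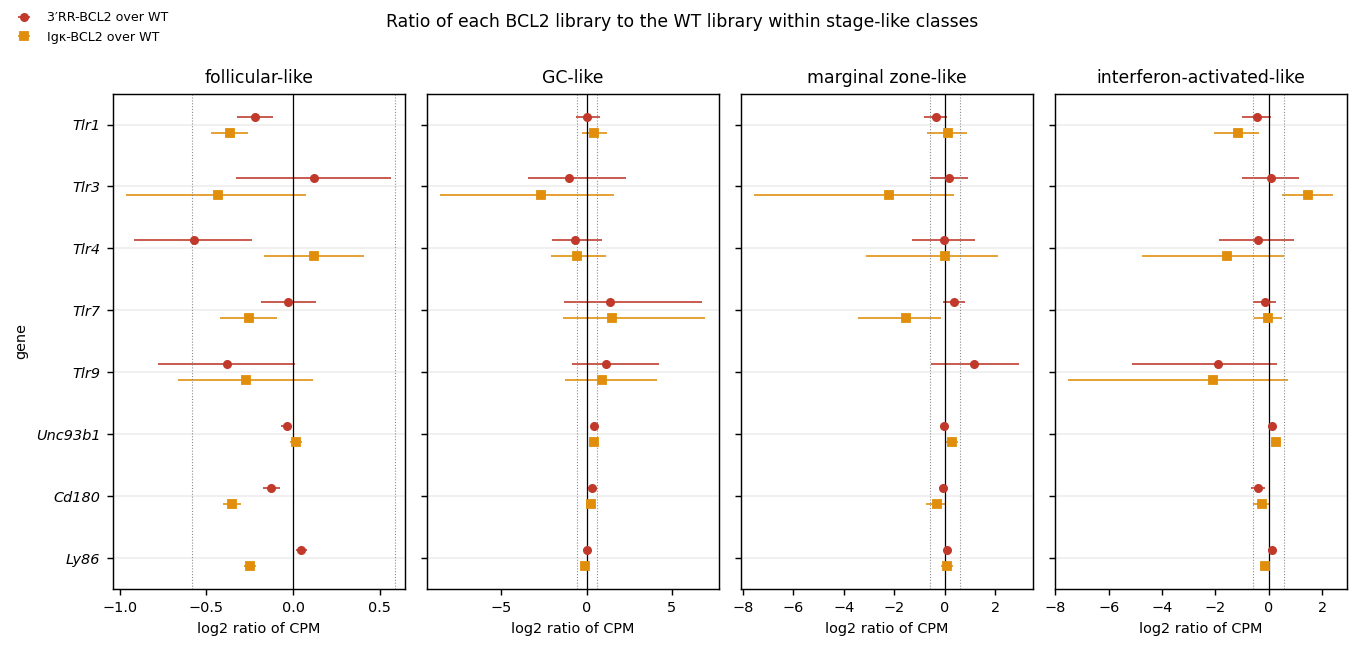
Log2 ratio of the level in the 3′RR-BCL2 library (red circles) and the Igκ-BCL2 library (orange squares) to that in the WT library within 4 classes, with exact 95% intervals and dotted lines at 1.5-fold. In follicular-like cells every point lies within 1.5-fold, and in the other classes the intervals of the receptors are wide. The first panel has a narrower axis.

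In GC-like cells Unc93b1 had 409 and 412 CPM in the 3′RR-BCL2 and Igκ-BCL2 libraries, against 300 in WT, at log2 ratios of 0.44 (0.25 to 0.64) and 0.46 (0.25 to 0.66). In non-dividing GC-like cells the ratios were 0.48 (0.22 to 0.74) and 0.42 (0.16 to 0.69), and in dividing ones 0.03 (-0.29 to 0.36) and 0.04 (-0.44 to 0.51), so intervals off 0 were found in non-dividing cells only. The intervals of dividing and non-dividing cells overlapped, and the dividing Igκ-BCL2 level rests on 61 UMIs. Cd180 had 225 and 214 CPM against 181 in WT, at 0.31 (0.06 to 0.57) and 0.24 (-0.03 to 0.52). Of the 6 genes measured, 2 passed 1.5-fold in the 3′RR-BCL2 library, where 24.3% of 9562 genes did, which is not set apart from the background. They were Tlr9, with 5.56 against 2.51 CPM (31 against 2 UMIs), and Tlr4, with 4.66 against 7.54 (26 against 6 UMIs), and both intervals held no difference. In the Igκ-BCL2 library 0 of 4 measured genes passed, where 30.2% did.

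In marginal zone-like cells 0 of 6 measured genes passed 1.5-fold in the 3′RR-BCL2 library, where 11.9% of genes did. In the Igκ-BCL2 library 2 of 6 did, where 30.4% did: Tlr7, with 13.4 CPM (4 UMIs) against 39.0 in WT (100 UMIs), at a log2 ratio of -1.54 (-3.44 to -0.14), and Tlr3, with 1 UMI against 40, at -2.22 (-7.55 to 0.35). The class held 34 cells in that library. In interferon-activated-like cells 0 of 5 measured genes passed in the 3′RR-BCL2 library, where 13.5% did, and 2 of 6 in the Igκ-BCL2 library, where 19.1% did: Tlr3, with 31.5 against 11.5 CPM, at 1.46 (0.50 to 2.42), and Tlr1, with 22.9 against 51.3, at -1.17 (-2.04 to -0.38). Within 1.5-fold, Cd180 had 152 CPM in these cells of the 3′RR-BCL2 library against 199 in WT, at -0.39 (-0.65 to -0.13), and Unc93b1 had 536 CPM in the Igκ-BCL2 library against 441 in WT, at 0.28 (0.10 to 0.46). With each cell thinned to 2000 UMIs, 0 of the 6 calls between libraries remained. In 2 smaller classes, which were not counted, Tlr1 had 19.3 and 22.2 CPM in transitional-like cells of the 3′RR-BCL2 and Igκ-BCL2 libraries against 45.8 in WT, and 22.5 and 30.6 in Myc-high cells against 46.7 in WT, on 6 to 10 UMIs in each BCL2 value.

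The signaling genes around the receptors were described from a list of 54, of which 48 were measured in the stage comparisons. In GC-like cells 1 was higher, where 4.63% of 11523 measured genes were, and 3 were lower, where 3.71% were, so the counts were not set apart from the background. The higher one was Socs1, a suppressor of cytokine signaling, with 50.6, 57.9 and 36.4 CPM in the 3′RR-BCL2, Igκ-BCL2 and WT libraries against 18.1, 17.8 and 9.60 in follicular-like cells. The lower ones were Irak3, an inhibitory kinase of the pathway (6.27, 7.88 and 7.54 against 37.4, 34.2 and 42.4), Irf4, a B cell transcription factor that competes with IRF5 for MYD88 (77.1, 106 and 59.1 against 192, 252 and 199), and 5430427O19Rik, the X-linked gene of the TASL adaptor through which SLC15A4 and endosomal receptors activate IRF5 (14.0, 9.85 and 8.80 against 34.5, 24.5 and 35.9). The call of 5430427O19Rik was lost with thinned cells.

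In interferon-activated-like cells 1 of the 48 was higher and 0 lower, where 1.09% and 0.0435% of measured genes were: Irf7, a transcription factor downstream of TLR7 and TLR9, with 162, 232 and 167 CPM against 18.5, 16.7 and 14.2. In marginal zone-like cells, where 1.13% of measured genes were higher and 0.678% lower, it was Ly96, the MD-2 partner of TLR4, with 31.1, 13.4 and 32.8 against 7.35, 6.35 and 9.82, which rested on 4 UMIs in the Igκ-BCL2 library and was lost with a looser cell filter and without cells past several stage limits. In plasma-marker cells Hsp90b1, the chaperone of Toll-like receptors and of other secretory proteins, was higher, with 1405, 1769 and 3200 against 401, 380 and 319, where 1.4% of measured genes were higher, and 5 were lower, where 2.91% were: Cnpy3, 5430427O19Rik, Irak3, Ikbkb and Nfkb1. Cnpy3, a cofactor of HSP90B1, had 7, 0 and 3 UMIs there, 5430427O19Rik had 3, 2 and 1 and Irak3 had 3, 1 and 2. Of these 5 lower calls 1 remained with immunoglobulin, ribosomal protein and mitochondrial genes left out of the totals, 0 with plasma-marker cells within the upper limits only, 0 with a stricter stage limit and 1 with thinned cells, while the call of Hsp90b1 remained in each. The transitional-like, Myc-high and B-1- or memory-like classes had 0 of 48 in either direction. Of all measured genes 0.974%, 4.15% and 1.15% were higher there and 0.226%, 2.58% and 0.157% were lower, so these counts were not set apart from the background.

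In plasma-marker cells the median log2 ratio of the list was -0.50, -0.38 and -0.26 in the 3′RR-BCL2, Igκ-BCL2 and WT libraries, beside -0.07, -0.16 and 0 over all measured genes, and that of the 8 genes was -0.67, -0.60 and -0.46. In GC-like cells the list's median log2 ratio was -0.03, -0.04 and -0.22 in the 3′RR-BCL2, Igκ-BCL2 and WT libraries, beside 0.01, 0.00 and 0 over all measured genes, and the median of the 8 genes was -0.29, -0.09 and -0.48. In marginal zone-like cells the median of the 8 was 0.70, 0.48 and 0.38, beside -0.05, 0 and -0.05 over all genes, and in interferon-activated-like cells it was 0.43, 0.24 and 0.63, beside -0.04, -0.03 and -0.04. In these medians a count of 0 was taken as 3 UMIs, and as no difference where that gave a bound on the wrong side.

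Between the libraries, Socs1 was the 1 gene of the 48 past 1.5-fold over WT in both BCL2 libraries, over all B-lineage cells (23.2 and 21.4 CPM in 3′RR-BCL2 and Igκ-BCL2 against 10.2 in WT) and in follicular-like cells (18.1 and 17.8 against 9.60), where 3.84% of 12952 and 2.55% of 12544 measured genes were higher in both. That count is not set apart from the background in either case. Over all B-lineage cells 0 of 48 were lower in both, where 2.06% were. In GC-like cells 3 of 43 measured in both were higher, where 9.8% of 8184 genes were, which is not set apart from the background, and 0 were lower, where 6.32% were. The higher ones were Tnfaip3, the A20 inhibitor of NF-kB signaling, with 162 and 173 against 108, and Tirap, an adaptor of surface receptors, and Ctsl, an endosomal protease, which had 3 UMIs each in WT. In marginal zone-like cells 1 of 42 measured in both was lower, where 3.2% of 8258 genes were: Sigirr, an inhibitory receptor (8.42 and 6.72 CPM against 12.9, with 13 and 2 UMIs against 33). In interferon-activated-like cells 1 of 39 was lower, where 3.43% of 7240 were: the X-linked Ikbkg (12 and 12.9 against 19.9). Neither count is set apart from the background.

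The genes whose levels were most like those of the members were sought over 30 points, 10 classes in 3 libraries, among 10773 genes, as Pearson r of log2(CPM + 5). These points share libraries, depth and mice, and the values are a description. Tlr3, Tlr4 and Tlr9 had no or few UMIs in many of the points, so their r values are open to counting error. For Tlr7 they were Ifi208 (r = 0.813), Gbp7 (0.808) and Trim30d (0.804), and for Tlr3 they were Ifi213 (0.728), Ifit3b (0.726) and Ifit3 (0.721), of which the last 2 are markers of the interferon class. For Ly86 they were Ctsc (0.868), Trim30b (0.866) and Carmil1 (0.860), and for Unc93b1 they were Znrf2 (0.878), Mga (0.852) and Arhgap30 (0.849). Tlr1 was most like Gm16014 (0.829), Apbb1ip (0.802) and Cdkal1 (0.791), Tlr4 most like Invs (0.706), Wdr13 (0.658) and Snx13 (0.648), and Tlr9 most like Xkrx (0.719), Zfp952 (0.697) and Itpkc (0.683). Among the 8, the closest pair was Ly86 and Unc93b1 (0.731), before Tlr1 and Ly86 (0.674) and Cd180 and Ly86 (0.664), while Tlr7 and Tlr9 had an r of -0.03.

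Cd180 and Ly86, whose proteins form a complex, were also compared within cells. Of thinned follicular-like cells with a Ly86 UMI, 28.4%, 25.1% and 30.1% had a Cd180 UMI in the 3′RR-BCL2, Igκ-BCL2 and WT libraries, against 27.2%, 23.6% and 28.1% of those without one. The 95% intervals of these shares overlapped in each library, so at this depth the pair showed no more than a slight tendency to be found in the same cells.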

How the data were processed

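Single-cell RNA from spleen was counted in 3 libraries, 1 per genotype. The authors aligned and counted the reads with Cell Ranger 6.1.1, and the deposited matrices hold raw counts of unique molecular identifiers (UMIs) per gene and cell barcode; the submitters' notes name the builds mm10 and hg38. The filter the study states was applied (between 800 and 4500 genes, no more than 20000 UMIs, mitochondrial share up to 8%, ribosomal share from 10%), and barcodes with 2 or more UMIs of Cd3 or C1q genes were left out. Doublets were not called. Plasma-marker cells above the upper limits were kept. A cell's score for a stage was the number of its markers detected less that expected at the cell's depth, in standard deviations. A cell was put in the stage with the highest score, if that score was at least 2.5 and at least 3 distinct markers (4 for plasma) were detected, and other cells with at least 3 follicular markers were called follicular-like. The 8 genes, the lists, the stage limits and the tests were chosen with earlier results of these data known.

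Counts were summed per stage and library and divided by all UMIs of those cells. Poisson intervals, ratio intervals and Clopper-Pearson intervals are exact at 95%. A count of 0 was read against a floor of 3 UMIs. All 8 genes were named in every stage, list genes were named where they passed the fold in all 3 libraries or in both BCL2 libraries, and the 3 genes of highest r were named for each, except for Cd180, for which they are not reported here. In simulated Poisson counts with known ratios, 96.3%, 96.7% and 96.7% of intervals held the true ratio in the GC-like, marginal zone-like and interferon-activated-like comparisons. In these counts 84.5%, 75.5% and 86% of genes changed 4-fold were called, and 0%, 0.0266% and 0.062% of unchanged genes were called. Such counts hold only the counting error that the intervals assume, so these shares say nothing of differences between cells, mice or runs. Alternatives were a looser cell filter, a stricter stage limit, stages from clusters, totals without immunoglobulin, ribosomal protein and mitochondrial genes, cells past several stage limits left out, thinned cells and other folds. Leaving out myeloid barcodes, keeping plasma-marker cells within the limits only, and counting the list calls again in every stage under the alternatives were chosen after seeing the data. Python 3.11.15 was used with numpy 2.4.6, scipy 1.17.1, pandas 2.3.3, matplotlib 3.10.9, igraph 0.11.9 and leidenalg 0.10.2. Other data of the study were not analysed here.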

Additional observations from a re-analysis of the deposited data

How the results depend on the processing

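Of the 7 stage calls, 7 were made again with a looser cell filter and without myeloid barcodes, 6 without cells past several stage limits and 5 with a stricter limit. There were 4 with totals that leave out immunoglobulin, ribosomal protein and mitochondrial genes and 4 with plasma-marker cells within the upper limits only, and in both cases the 3 plasma-marker calls were lost. There were 2 with stages from clusters and 2 with cells thinned to 2000 UMIs. No plasma-marker cluster formed, so those 3 calls could not be remade there. The calls of Tlr3 and Tlr7 in interferon-activated-like cells were made in all 8 of these alternatives. Tlr7 in GC-like cells was lost under clusters, where the WT log2 ratio was -0.85, and under thinning, which left 0 UMIs in WT. Tlr3 in marginal zone-like cells was lost under the stricter limit, clusters and thinning, each time through the Igκ-BCL2 library, whose log2 ratio was -0.064 under clusters. Of the 6 calls between libraries, 12 calls were made under clusters, 5 of them shared, and under thinning 5 were made with 0 shared. With thinning the log2 ratio of Tlr1 in plasma-marker cells of the Igκ-BCL2 library was 0.63 and that of Tlr4 in GC-like cells of 3′RR-BCL2 over WT was 0.66, both reversed. The causes were not tested. At 1.5-fold in all 3 libraries, Unc93b1 in plasma-marker cells was called too. Tlr3, Tlr4 and Tlr9 rest on few UMIs outside follicular-like cells, and the Igκ-BCL2 marginal zone-like class on 34 cells. No paired analysis was possible because each genotype had 1 library.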
